A study of Homo sapiens with 9 samples.

Results

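The genes described here encode the enzymes that make melanin and the structural and membrane proteins of the melanosome, the organelle in which melanin is made and stored. They are TYR, TYRP1, DCT, PMEL, MLANA, GPNMB and GPR143, 7 of the 60675 genes in the deposited table. They were chosen by name, with earlier results of these data known, and each was found by matching its Ensembl identifier to its symbol. All 7 passed the filter on low counts and were among the 18009 genes tested.

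Expression was measured by RNA sequencing in SC10, SC07 and SC01, which descend from SK-MEL-5, a long-established line of human melanoma cells with a BRAF mutation. Every subclone grew out from 1 cell by limiting dilution without drug, so each group is 1 clone. Selection rested on the first response to PLX-4720, a BRAF inhibitor, but how each of them responded is not in the labels. No cells were treated here, and each clone has 3 libraries, so the comparisons address differences present before any drug. Nothing states that replicates are separate cultures, so p-values cover the spread among these libraries, possibly only a technical one. Differences between clones and between batches cannot be told apart.

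Melanin is made from tyrosine in a short pathway. TYR, tyrosinase, carries out the first and rate-limiting oxidation. DCT, dopachrome tautomerase, converts the intermediate dopachrome, and TYRP1, a relative of both, oxidises a later intermediate in mice and stabilises tyrosinase. PMEL forms the amyloid fibrils on which melanin is laid down, and MLANA, also known as MART-1, is a small membrane protein that binds PMEL and is needed for its maturation. GPR143 is a receptor in the melanosome membrane that controls the number and size of melanosomes and is mutated in ocular albinism. GPNMB is a glycoprotein related to PMEL that is found in melanosomes and lysosomes, and in macrophages and osteoclasts outside this lineage. In melanocytes MITF, the transcription factor of the lineage, binds E-box elements near many of these genes.

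The total of deposited counts ran from 30224066 to 39454087 per library, and the 7 genes drew between 1653 counts (GPR143 in SC01 replicate 2) and 458114 counts (PMEL in SC07 replicate 2). Levels are given as CPM, counts scaled by TMM to a common library size. SC10 replicate 3 stood further from the other SC10 libraries than those did from each other (chi-square per degree of freedom 10.04 and 11.1, against 2.51). As a check of the labelled lineage, MITF measured 550 ± 20 CPM in SC10, 499 ± 13 in SC07 and 450 ± 1.9 in SC01 (mean ± SD, n = 3 here and below). PAX3, S100B and S100A1 were also detected in every clone. Of 9 melanocyte markers, 7 were tested, among them TYR, PMEL and MLANA of the genes described here. In SC10 and likewise in SC07, 4 were higher and 3 lower than in SC01. Over all genes tested, 33.5% were higher and 32.4% lower in SC10, and 31.5% and 30.5% in SC07. Leaving out TYR, PMEL and MLANA, only MITF was higher, and PAX3, S100B and S100A1 were lower in both. The MITF call in SC07 was lost when scaled by library totals alone. In SC10 against SC07, 3 markers were higher and 4 lower, where 24.8% and 23.0% of genes were. For SOX10 every library held 0 counts, and MCAM was at clone means of 0.268, 0.0943 and 0.180 CPM, which goes against the usual pattern of a melanoma line. The cause was not tested.

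The clones differed in which of these transcripts they carried more than in whether they carried them. TYR, DCT, PMEL, MLANA and GPR143 were higher in SC10 and in SC07 than in SC01. TYRP1 and GPNMB were lower. Between SC10 and SC07, TYRP1, DCT, PMEL, GPNMB and TYR were lower in SC10, MLANA was higher, and GPR143 did not pass the threshold. In bulk RNA a difference in the share of cells that express a gene and a difference in RNA per cell cannot be told apart.

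Against SC01, 5 of the 7 genes were higher in SC10 and 2 lower by edgeR's quasi-likelihood test (adjusted p below 0.05), where 33.5% of all genes tested were higher and 32.4% lower. For SC07 against SC01 the counts were also 5 higher and 2 lower, where 31.5% of genes were higher and 30.5% lower. When scaled by library totals alone, the genes called for SC07 against SC01 were 4666 higher and 6841 lower, against 5675 and 5487 under TMM, and the 7 genes kept their calls. For SC10 against SC07, 1 was higher and 5 lower, where 24.8% and 23.0% of genes were. With 65.9%, 62.0% and 47.9% of all genes called in those comparisons, a call by itself says little. Libraries did not overlap for 7, 7 and 6 of the 7 genes, against 69.1%, 67.4% and 53.4% of all genes. Tested over the 3 clones together, all 7 differed, as did 76.3% of all genes. The median size of the log2 change, whatever its direction, was 0.86 over the 7 genes and 0.43 over all genes for SC10 against SC01. It was 0.98 against 0.39 for SC07 against SC01, and 0.50 against 0.26 for SC10 against SC07. The comparisons with SC01 share its 3 libraries, so they are not independent of each other.

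**Figure D1:**
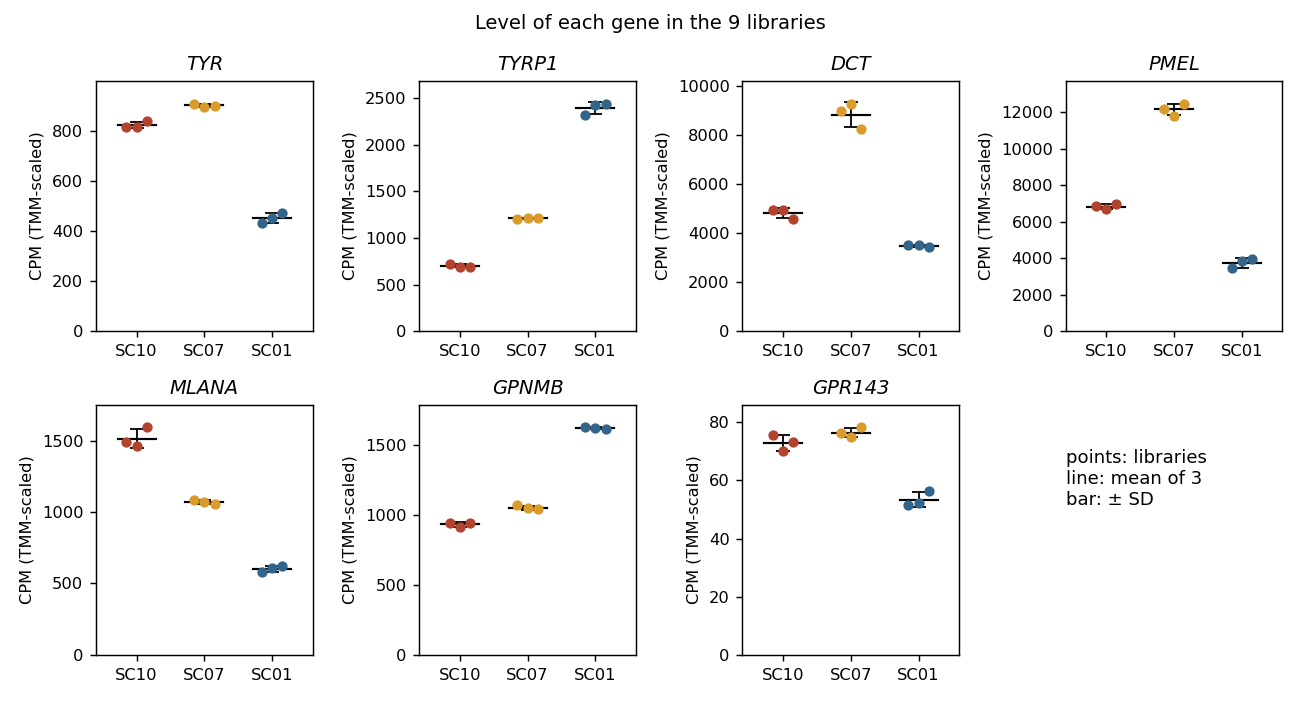
TMM-scaled CPM of each gene in the SC10, SC07 and SC01 libraries, on axes that start at 0. Points are libraries, lines are means of 3 and bars are ± SD. TYRP1 and GPNMB are highest in SC01, MLANA is highest in SC10, and TYR, DCT, PMEL and GPR143 have their highest mean in SC07.

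The stretch around a gene's start shows which E-box letters lie near genes that moved together or apart. The 4 shown are the 3 enzymes, of which TYRP1 moved against TYR and DCT, and GPNMB, which moved with TYRP1. They run from 250 bases before to 50 bases after the RefSeq start, read 5′ to 3′ on the gene's strand (RefSeq, GRCh38.p14). Capitals mark CATGTG or its reverse complement CACATG.
TYR, chr11:89177625-89177924, plus strand: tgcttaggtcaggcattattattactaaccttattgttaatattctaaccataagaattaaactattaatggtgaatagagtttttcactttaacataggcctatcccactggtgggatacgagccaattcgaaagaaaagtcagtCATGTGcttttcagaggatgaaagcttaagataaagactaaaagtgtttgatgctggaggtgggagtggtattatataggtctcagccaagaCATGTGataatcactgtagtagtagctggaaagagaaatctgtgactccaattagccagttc
TYRP1, chr9:12693135-12693434, plus strand: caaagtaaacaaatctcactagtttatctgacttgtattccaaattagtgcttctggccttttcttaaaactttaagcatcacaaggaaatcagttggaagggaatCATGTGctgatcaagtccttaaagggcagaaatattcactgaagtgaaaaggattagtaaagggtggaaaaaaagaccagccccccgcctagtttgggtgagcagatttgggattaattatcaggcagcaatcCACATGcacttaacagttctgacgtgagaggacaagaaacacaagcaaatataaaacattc
DCT, chr13:94479633-94479932, minus strand: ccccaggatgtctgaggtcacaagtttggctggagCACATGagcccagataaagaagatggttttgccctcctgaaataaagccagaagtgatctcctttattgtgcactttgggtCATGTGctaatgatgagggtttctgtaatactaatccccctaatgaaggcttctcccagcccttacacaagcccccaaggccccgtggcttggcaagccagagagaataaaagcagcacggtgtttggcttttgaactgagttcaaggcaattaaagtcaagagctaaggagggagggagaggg
GPNMB, chr7:23246525-23246824, plus strand: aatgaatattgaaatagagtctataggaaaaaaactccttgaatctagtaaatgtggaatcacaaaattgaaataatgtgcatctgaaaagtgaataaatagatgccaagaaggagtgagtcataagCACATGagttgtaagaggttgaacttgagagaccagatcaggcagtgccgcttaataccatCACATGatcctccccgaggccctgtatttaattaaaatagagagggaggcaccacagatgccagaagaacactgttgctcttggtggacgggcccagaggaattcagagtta

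Windows were found for 6 of the 7 genes, and DCT had a further RefSeq start upstream. The longer motif TCATGTG (reverse complement CACATGA) contains CATGTG, and every CATGTG also fits the E-box CANNTG. On either strand, TCATGTG was in the TYR window once, beginning 105 bases before the start, and in the TYRP1 window once, 145 bases before it. The DCT window shown held it 2 times, 215 and 135 bases before the start, and the GPNMB window 2 times, at 123 and 62. GPR143 also held 2 matches, at 61 and 33, while the MLANA window and that of the upstream DCT start held none. Of 35116 windows of this length, 2.92% held TCATGTG, 11.1% CATGTG and 68.7% the general E-box. The related motif TCACGTG was in none of the windows of these genes and in 3.71% of all. The motif was therefore in the windows of genes that were higher (TYR, DCT, GPR143) and of genes that were lower (TYRP1, GPNMB) in SC10 and SC07 than in SC01. A match is a run of letters and not a shown binding site.

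The enzymes came apart. TYR (ENSG00000077498, chromosome 11, 89177452 to 89295759, GRCh38, plus strand) measured 817, 815 and 838 CPM in SC10, 908, 897 and 901 CPM in SC07, and 432, 451 and 474 CPM in SC01. The 3 sets of libraries did not overlap, with SC07 highest, SC10 just below and SC01 far lower. Its log2 change was 0.86 ± 0.042 (SE) for SC10 against SC01 (adjusted p = 1.77e-16, edgeR) and 0.996 ± 0.042 for SC07 against SC01 (adjusted p = 7.48e-18). The step between SC10 and SC07 was small, at -0.13 ± 0.041 (adjusted p = 0.00929), and its adjusted p was 0.0466 without SC07 replicate 1.

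TYRP1 (ENSG00000107165, chromosome 9, 12685439 to 12710290, plus strand) ran the other way. It measured 721, 693 and 691 CPM in SC10, 1205, 1217 and 1215 CPM in SC07, and 2318, 2424 and 2440 CPM in SC01. The libraries formed 3 well separated levels with SC10 lowest. TYRP1 was 3.41-fold lower in SC10 than in SC01, a log2 change of -1.77 ± 0.041 (adjusted p = 1.22e-23, edgeR). It was 1.97-fold lower in SC07 than in SC01 (-0.98 ± 0.040, adjusted p = 3.9e-18) and 1.73-fold lower in SC10 than in SC07 (-0.79 ± 0.040, adjusted p = 2.27e-15). Being lower in all 3 comparisons was shared by 5.57% of genes tested.

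DCT (ENSG00000080166, chromosome 13, 94436808 to 94479682, minus strand) measured 4921, 4947 and 4591 CPM in SC10, 8976, 9267 and 8242 CPM in SC07, and 3505, 3507 and 3426 CPM in SC01. SC07 stood highest, SC10 lay between and SC01 was lowest, again without overlap. DCT was 2.54-fold higher in SC07 than in SC01 (log2 change 1.34 ± 0.045, adjusted p = 5.89e-20, edgeR) and 1.39-fold higher in SC10 than in SC01 (0.47 ± 0.045, adjusted p = 4.13e-10). It was 1.83-fold lower in SC10 than in SC07 (-0.87 ± 0.045, adjusted p = 3.32e-15). The spread of DCT in SC07, 6.0% of its mean, was the widest of the enzymes in any clone.

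PMEL (ENSG00000185664, chromosome 12, 55954105 to 55973317, minus strand), the fibril protein, measured 6869, 6671 and 6940 CPM in SC10, 12167, 11808 and 12450 CPM in SC07, and 3439, 3852 and 3968 CPM in SC01. The order was that of DCT, and the steps were larger against SC01. PMEL was 3.24-fold higher in SC07 than in SC01 (log2 change 1.69 ± 0.047, adjusted p = 7.49e-22, edgeR) and 1.82-fold higher in SC10 than in SC01 (0.86 ± 0.046, adjusted p = 2.12e-15). It was 1.78-fold lower in SC10 than in SC07 (-0.83 ± 0.046, adjusted p = 1.96e-14). Being higher in both clones than in SC01 and lower in SC10 than in SC07, as TYR, DCT and PMEL were, was shared by 5.12% of genes tested. PMEL shares 89 exon bases, 2.28% of its exon length, with CDK2, a cell-cycle kinase on the other strand. CDK2 measured 630 ± 14, 926 ± 18 and 746 ± 7.7 CPM in SC10, SC07 and SC01, and its log2 changes were -0.24 ± 0.039 for SC10 against SC01, 0.31 ± 0.039 for SC07 against SC01 and -0.56 ± 0.039 for SC10 against SC07. The first had the opposite sign to that of PMEL and the others the same sign.

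MLANA (ENSG00000120215, chromosome 9, 5890802 to 5910606, plus strand) had yet another order. It measured 1490, 1460 and 1592 CPM in SC10, 1087, 1070 and 1059 CPM in SC07, and 581, 609 and 621 CPM in SC01. SC10 was highest and the clones did not overlap. MLANA was 2.51-fold higher in SC10 than in SC01 (log2 change 1.33 ± 0.043, adjusted p = 2.49e-20, edgeR) and 1.78-fold higher in SC07 than in SC01 (0.83 ± 0.043, adjusted p = 8.39e-16). It was also 1.41-fold higher in SC10 than in SC07 (0.50 ± 0.042, adjusted p = 1.35e-10), the only 1 of the 7 genes to be so. Being higher in all 3 comparisons was shared by 7.51% of genes tested.

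GPR143 (ENSG00000101850, chromosome X, 9725346 to 9786297, minus strand) measured 75.6, 70.1 and 73.2 CPM in SC10, 76.1, 75.0 and 78.2 CPM in SC07, and 51.4, 52.2 and 56.2 CPM in SC01. SC10 and SC07 overlapped, and both lay above SC01. It was 1.37-fold higher in SC10 than in SC01 (log2 change 0.45 ± 0.050, adjusted p = 6.46e-09, edgeR) and 1.44-fold higher in SC07 than in SC01 (0.52 ± 0.050, adjusted p = 5.06e-10). The change between SC10 and SC07 was -0.07 ± 0.049 (adjusted p = 0.278), which does not show that the clones are alike.

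GPNMB (ENSG00000136235, chromosome 7, 23235967 to 23275108, plus strand) was highest in SC01. It measured 940, 914 and 943 CPM in SC10, 1070, 1048 and 1041 CPM in SC07, and 1626, 1623 and 1615 CPM in SC01. No clones overlapped, and the SD of the SC01 libraries was 0.37% of their mean. GPNMB was 1.74-fold lower in SC10 than in SC01 (log2 change -0.80 ± 0.039, adjusted p = 2.08e-16, edgeR) and 1.54-fold lower in SC07 than in SC01 (-0.62 ± 0.039, adjusted p = 5.39e-14). The step between SC10 and SC07 was -0.18 ± 0.039 (adjusted p = 0.000419). Because macrophages also express GPNMB, leukocyte markers were read beside it. The 8 of them summed to between 1.45 and 1.66 CPM in SC10, 3.52 and 4.20 CPM in SC07 and 0.868 and 1.45 CPM in SC01. AIF1 was at 0 counts in every library, and CD163 and TYROBP had clone means of at most 0.0105 CPM. PTPRC, the leukocyte common antigen, measured 0.735 ± 0.14 CPM in SC10, 3.12 ± 0.50 in SC07 and 0.173 ± 0.15 in SC01. In the same order the clone means were 0.519, 0.330 and 0.479 CPM for CSF1R, 0.143, 0.160 and 0.0821 for CD68, 0.137, 0.214 and 0.245 for LYZ, and 0.0190, 0.0406 and 0.0876 for CD14. LYZ and CD14 had their highest mean in SC01, PTPRC and CD68 in SC07, and CSF1R in SC10. LYZ (0.245 ± 0.26 CPM in SC01), CD14 (0.0876 ± 0.023 in SC01) and CD68 failed the filter on low counts, so their order was not tested. Other genes share 85.8% of the exon bases of CD68 and 34.0% of those of LYZ. The part of these markers in the GPNMB values was not tested.

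**Figure D2:**
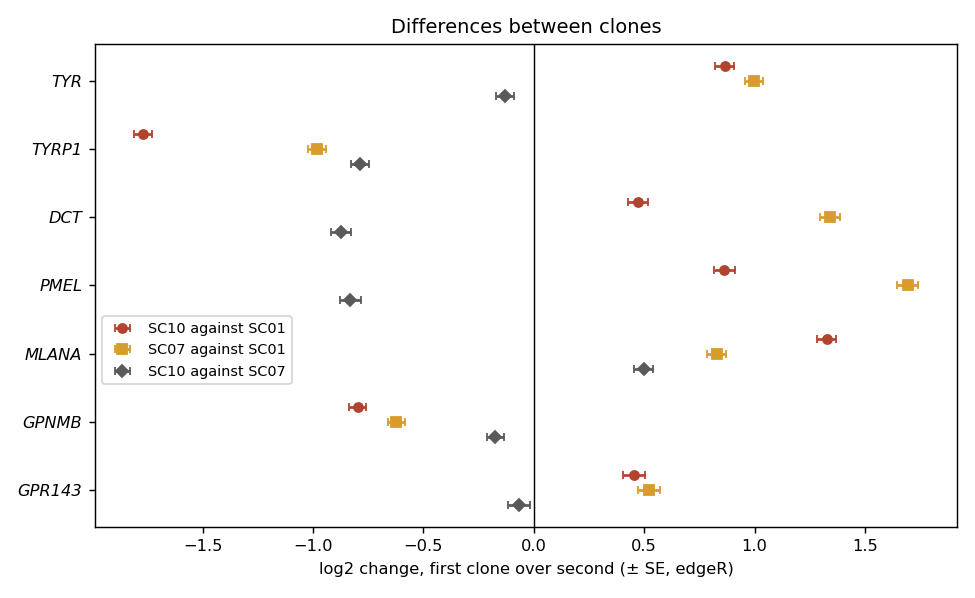
Log2 change of each gene, first named clone over the second, with the standard error as bars (edgeR, all 9 libraries). TYRP1 and GPNMB lie left of 0 in all 3 comparisons and MLANA lies right of 0 in all 3, while TYR, DCT and PMEL lie right of 0 against SC01 and left of 0 for SC10 against SC07.

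Summed over the 7 genes, the transcripts took 1.53% ± 0.0095 of all counts in SC10, 2.47% ± 0.042 in SC07 and 1.30% ± 0.026 in SC01. To compare genes with each other, CPM was divided by the kilobases of merged exons in GENCODE 29. On that scale PMEL was the most abundant of the 7 in every clone, at 1750 ± 36 CPM per kb in SC10, 3112 ± 83 in SC07 and 962 ± 71 in SC01. It ranked 15, 13 and 18 among the 17871 tested and annotated genes in SC10, SC07 and SC01.

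Which gene came next differed by clone. In SC10 the order below PMEL was DCT (639 ± 26 CPM per kb), MLANA (491 ± 22), TYR (273 ± 4.2), TYRP1 (188 ± 4.5) and GPNMB (154 ± 2.6). In SC07 it was DCT (1170 ± 70), MLANA (348 ± 4.5), TYRP1 (324 ± 1.7), TYR (299 ± 1.9) and GPNMB (174 ± 2.5). In SC01 TYRP1 stood next to PMEL (640 ± 18), followed by DCT (461 ± 6.1), GPNMB (268 ± 0.99), MLANA (196 ± 6.7) and TYR (150 ± 7.0). GPR143 was last in every clone, at 29.4 ± 1.1, 30.7 ± 0.64 and 21.4 ± 1.0 CPM per kb in SC10, SC07 and SC01.

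The order rests on which exons are counted as length. With the shorter exon set of GENCODE's basic annotation, chosen after seeing the data, MLANA (386 ± 5.0 CPM per kb) fell below TYRP1 (425 ± 2.2) in SC07, and the other orders above were kept. As a share of the summed CPM per kb of the 7 genes, TYRP1 made up 5.32% ± 0.12 in SC10, 5.94% ± 0.065 in SC07 and 23.7% ± 0.21 in SC01. PMEL made up 49.7% ± 0.44 in SC10, 57.0% ± 1.4 in SC07 and 35.6% ± 1.4 in SC01. The share of MLANA was 13.9% ± 0.52, 6.37% ± 0.064 and 7.26% ± 0.036, and that of GPNMB was 4.38% ± 0.021, 3.19% ± 0.033 and 9.95% ± 0.40, in the same order.

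**Figure D3:**
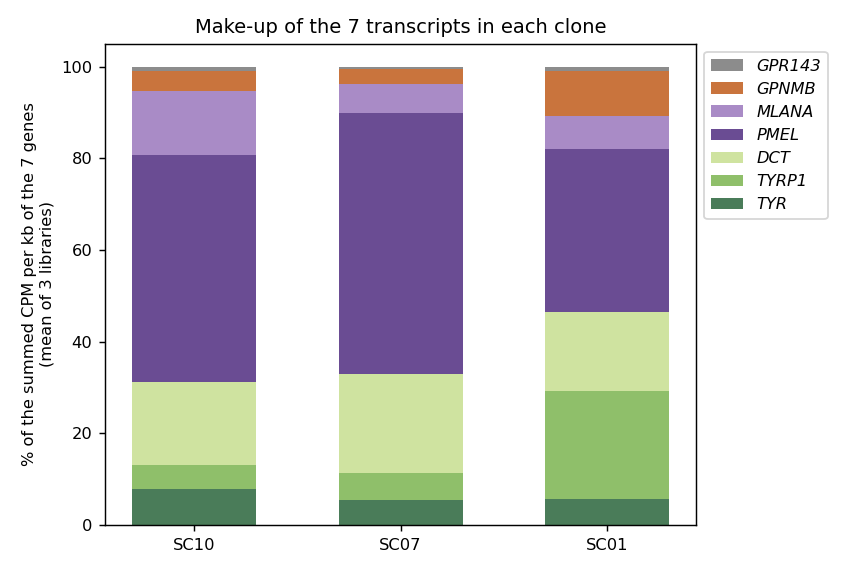
Make-up of the 7 transcripts in SC10, SC07 and SC01, as the percent each gene takes of their summed CPM per kb of exon (mean of 3 libraries, bars stacked to 100%). TYRP1 takes 23.7% in SC01, against 5.32% in SC10 and 5.94% in SC07, and PMEL is the largest part in each clone.

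Ratios of a pair of these genes within a library need no scaling between libraries. The ratio of TYRP1 to TYR, both per kb, was 0.688 ± 0.023 in SC10, 1.08 ± 0.012 in SC07 and 4.27 ± 0.10 in SC01. It was thus 6.21-fold lower in SC10 than in SC01 and 3.94-fold lower in SC07 than in SC01. DCT to TYRP1 was 3.41 ± 0.12 in SC10, 3.61 ± 0.22 in SC07 and 0.721 ± 0.027 in SC01, so the gene with more transcript per kb changed between SC01 and the others. DCT to TYR varied less, at 2.34 ± 0.13, 3.91 ± 0.24 and 3.08 ± 0.18 in SC10, SC07 and SC01.

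Among the structural genes, PMEL to MLANA was 3.57 ± 0.11 in SC10, 8.95 ± 0.30 in SC07 and 4.91 ± 0.20 in SC01. PMEL to GPNMB was 11.3 ± 0.054 in SC10, 17.9 ± 0.58 in SC07 and 3.58 ± 0.28 in SC01. Of the 15 differences between clones in 5 such ratios, 14 had libraries that did not overlap. The share for other pairs of genes was not measured. For single genes it was 69.1%, 67.4% and 53.4% in the comparisons SC10 with SC01, SC07 with SC01 and SC10 with SC07. The 15 are not independent, as DCT to TYRP1 follows from the other enzyme ratios and the comparisons share clones. Each of those 14 reached p = 0.1 in the two-sided exact permutation test, the smallest p that 3 against 3 libraries allow, so none could pass 0.05, also after adjustment. The exception was DCT to TYRP1 in SC10 against SC07 (difference of -0.08 on the log2 scale, p = 0.3, exact permutation test).

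**Figure D4:**
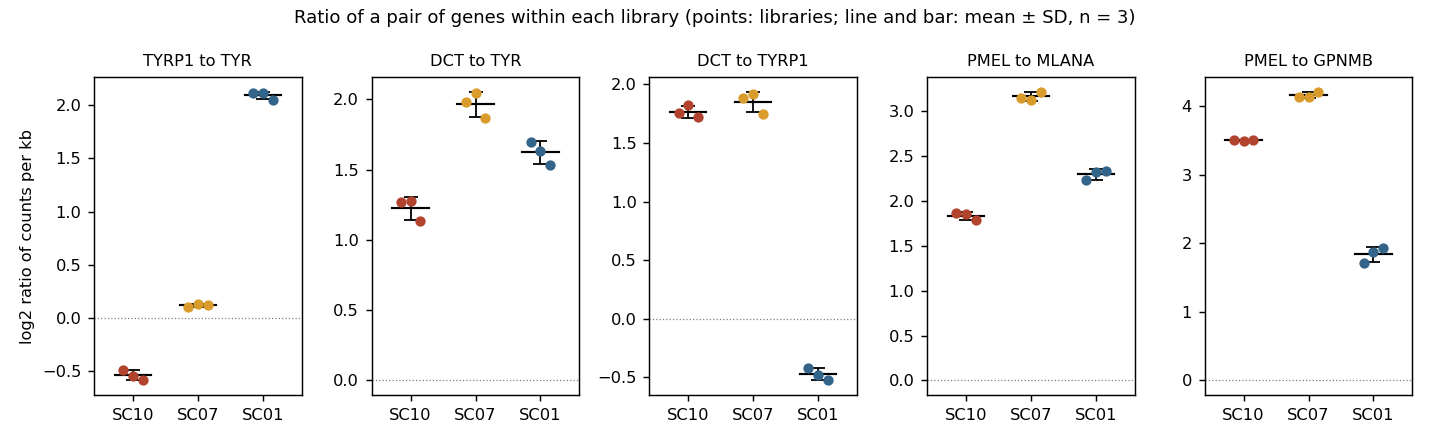
Log2 ratio of counts per kb between a pair of genes within each library of SC10, SC07 and SC01. Points are libraries, and lines and bars are mean ± SD (n = 3); the dotted line marks equal levels. TYRP1 lies above TYR in SC01 and below it in SC10, and DCT lies above TYRP1 in SC10 and SC07 and below it in SC01.

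MITF had smaller log2 changes than any of the 7 genes against SC01, while for SC10 against SC07 those of TYR and GPR143 were smaller still. Its log2 change was 0.29 ± 0.041 for SC10 against SC01 (adjusted p = 6.03e-07, edgeR), 0.15 ± 0.041 for SC07 against SC01 (adjusted p = 0.00248) and 0.14 ± 0.041 for SC10 against SC07 (adjusted p = 0.00625). When scaled by library totals alone, MITF was not called for SC07 against SC01 (0.04, adjusted p = 0.352, edgeR). Of 12 lineage regulators, 10 were tested. Of those, 4 were higher and 5 lower in SC10 than in SC01, 3 were higher and 7 lower in SC07 than in SC01, and 3 were higher and 4 lower in SC10 than in SC07. The shares of all genes tested were 33.5% and 32.4%, 31.5% and 30.5%, and 24.8% and 23.0%, in the same order. When scaled by library totals alone, 1 was higher and 5 lower in SC10 than in SC01, and 1 higher and 7 lower in SC07 than in SC01. All genes tested then had 5044 higher and 7094 lower in SC10, and 4666 and 6841 in SC07. IRF4, a transcription factor that acts with MITF on the TYR gene, measured 44.6 ± 2.0 CPM in SC10, 79.0 ± 2.4 in SC07 and 113 ± 2.8 in SC01, an order opposite to that of MITF. TFAP2A, which acts with MITF at pigment genes, fell to 115 ± 3.8 CPM in SC10 and 116 ± 1.0 in SC07, against 348 ± 6.8 in SC01. TFEB, a relative of MITF that drives lysosomal genes, measured 10.6 ± 0.54, 13.6 ± 2.0 and 7.94 ± 2.0 CPM in SC10, SC07 and SC01, and its call for SC10 against SC01 was lost under that scaling. SOX9 stood at 0.287 ± 0.096, 1.53 ± 0.21 and 2.27 ± 0.46 CPM.

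Among 8 receptors and ligands of pigment signalling, 4 were tested. KITLG, the ligand of the receptor KIT, was higher in SC10 (14.0 ± 0.67 CPM) and SC07 (18.0 ± 0.46) than in SC01 (3.66 ± 0.51). EDNRB, an endothelin receptor, was lower in SC10 (64.7 ± 0.47 CPM) and SC07 (64.1 ± 2.4) than in SC01 (129 ± 4.3). MC1R, the melanocortin receptor, measured 13.7 ± 0.66, 18.5 ± 0.61 and 21.2 ± 0.51 CPM in SC10, SC07 and SC01, with 44.5% of its exon bases overlapped by other genes. KIT was at 0.0560 ± 0.055 CPM in SC10, 0.0271 ± 0.026 in SC07 and 0.398 ± 0.073 in SC01, with 49 counts in all 9 libraries. Its means in SC10 and SC07 lie below the level of 3 counts, 0.0773 to 0.0948 CPM. In all, 1 was higher and 3 lower, KIT among them, in each comparison with SC01, and 0 were higher and 2 lower in SC10 than in SC07. Shares over all genes tested were 33.5% and 32.4% for SC10 against SC01, 31.5% and 30.5% for SC07 against SC01, and 24.8% and 23.0% for SC10 against SC07.

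Of 8 melanosome channels and transporters, 4 were higher and 2 lower in SC10 than in SC01, the same numbers held for SC07 against SC01, and 3 were higher and 3 lower in SC10 than in SC07. Over all genes tested the shares were 33.5% and 32.4%, 31.5% and 30.5%, and 24.8% and 23.0%, in the same order. Library totals as the only scaling turned the balance against SC01, to 2 higher and 3 lower in SC10 and likewise in SC07. Over all genes, that scaling gave 5044 higher and 7094 lower in SC10, and 4666 and 6841 in SC07. SLC45A2, a transporter that keeps the melanosome from becoming acid, measured 160 ± 2.2 CPM in SC10, 173 ± 2.8 in SC07 and 44.9 ± 2.7 in SC01. OCA2, an anion channel of melanosomes, measured 152 ± 1.5, 210 ± 8.7 and 136 ± 5.0 CPM in these clones and was not called for SC10 against SC01 under that scaling (log2 change 0.05). MFSD12, which imports cysteine, was at 1833 ± 38, 1563 ± 103 and 2197 ± 57 CPM, and SLC24A5, an exchanger, at 28.3 ± 2.1, 11.8 ± 0.40 and 48.8 ± 2.0 CPM. Exon bases of the last pair overlap other genes by 23.9% and 32.9%.

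Of 24 genes that sort and carry melanosome cargo, 12 were higher and 6 lower in SC10 than in SC01, 11 were higher and 7 lower in SC07 than in SC01, and 10 were higher and 7 lower in SC10 than in SC07. Among all genes tested, the shares were 33.5% and 32.4%, 31.5% and 30.5%, and 24.8% and 23.0%, in the same order. The counts against SC01 moved with the scaling. With library totals alone, 8 were higher and 8 lower in SC10, and 9 higher and 8 lower in SC07. The calls over all genes moved too, to 5044 higher and 7094 lower in SC10, and 4666 and 6841 in SC07. Under TMM scaling the median log2 changes of the 24 were 0.16, 0.08 and 0.09, against -0.01, -0.01 and -0.01 over all genes tested. RAB27A, which tethers melanosomes to myosin, was at 142 ± 3.1 CPM in SC10, 164 ± 6.4 in SC07 and 55.4 ± 1.1 in SC01. MYO5A, that myosin, was at 553 ± 74, 367 ± 5.1 and 280 ± 5.9 CPM. HPS4, a subunit of the BLOC-3 complex, was at 538 ± 14, 764 ± 13 and 340 ± 7.9 CPM, and HPS5, of BLOC-2, at 414 ± 10, 327 ± 4.4 and 202 ± 3.2 CPM.

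PMEL needs cleavage and sorting to form fibrils. APOE, an apolipoprotein on which PMEL fibrils form, measured 249 ± 11 CPM in SC10, 467 ± 17 in SC07 and 103 ± 9.4 in SC01, a log2 change of 1.28 ± 0.055 for SC10 against SC01 (adjusted p = 3.75e-16, edgeR) and 2.19 ± 0.056 for SC07 against SC01 (adjusted p = 9.98e-21). CD63, a tetraspanin that sorts PMEL, was at 1142 ± 86, 1582 ± 39 and 1015 ± 42 CPM. The proteases went the other way: BACE2, which trims PMEL, was at 301 ± 2.9 CPM in SC10, 309 ± 10 in SC07 and 391 ± 5.7 in SC01, and FURIN at 144 ± 7.0, 142 ± 6.3 and 170 ± 2.5 CPM. All 4 were called against SC01, with 2 higher and 2 lower in either clone, and for SC10 against SC07 APOE and CD63 were lower while the proteases did not pass. Of all genes tested, 65.9% were called for SC10 against SC01, 62.0% for SC07 against SC01 and 47.9% for SC10 against SC07. CD63 was not called for SC10 against SC01 when scaled by library totals alone (0.06).

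Of 8 further genes commonly listed as MITF targets, 4 were higher and 1 lower in SC10 than in SC01, where 33.5% and 32.4% of all genes tested were. In SC07 against SC01, 6 were higher and 0 lower (the other 2 did not pass), where 31.5% and 30.5% of genes were. For SC10 against SC07, 2 were higher and 5 lower, where 24.8% and 23.0% of genes were. CAPN3 and CDK2, both among the 6, share 57.1% and 16.8% of their exon bases with other genes, CDK2 in part with PMEL. With library totals alone, 4 were higher and 2 lower in SC10, and 6 higher and 1 lower in SC07, against SC01. Across all genes the counts were then 5044 higher and 7094 lower in SC10, and 4666 and 6841 in SC07. ACP5, an acid phosphatase, measured 200 ± 7.2 CPM in SC10, 251 ± 8.9 in SC07 and 44.3 ± 3.6 in SC01. MET, a receptor tyrosine kinase, measured 723 ± 57, 570 ± 2.2 and 94.2 ± 1.6 CPM. TRPM1, a cation channel, stood apart in SC07, at 29.5 ± 0.40, 58.9 ± 2.9 and 28.3 ± 1.2 CPM, as did CEACAM1, an adhesion molecule, at 91.2 ± 6.6, 143 ± 3.1 and 89.4 ± 0.94 CPM.

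Genes with patterns most like each of the 7 were ranked among 10168 protein-coding candidates by the root mean square difference of centred log2 CPM over the 9 libraries. Those libraries come from 3 clones, so many genes lie close. CORO1C, FAXDC2 and CCDC50 were closest to TYR (0.036, 0.040 and 0.044 on the log2 scale), and GIMAP2, RARG and TXNIP to TYRP1 (0.073, 0.073 and 0.075). CAST, CCDC136 and TNFRSF10B were closest to DCT (0.106, 0.108 and 0.109), and MYO1D, ATOH8 and SEC14L1 to PMEL (0.055, 0.082 and 0.097). TDRD3, TMX2 and NT5DC1 were closest to MLANA (0.045, 0.051 and 0.055), PRKAR2B, XPO5 and TIMP2 to GPNMB (0.038, 0.041 and 0.042), and TP53I13, TMEM11 and AMZ2 to GPR143 (0.029, 0.039 and 0.039). No other of the 7 genes was among the closest 3 for any of them. The nearest pair was DCT and PMEL, at 0.20, where DCT held rank 32 for PMEL and PMEL rank 64 for DCT. The farthest was TYRP1 and MLANA, at 1.27, both on chromosome 9.

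The nearest tested protein-coding gene on either side was read beside each of the 7. For GPNMB both neighbours moved with it. Of all genes tested, 32.4% were lower in SC10 than in SC01 and 30.5% in SC07, and these comparisons share the SC01 libraries. MALSU1, a factor for mitochondrial ribosomes that starts 23.6 kb beyond GPNMB, had log2 changes of -0.83 ± 0.053 for SC10 against SC01 and -0.64 ± 0.053 for SC07 against SC01, and 39.5% of its exon bases overlap other genes. NUPL2, a nuclear pore gene 35.0 kb before it, had changes of -0.55 ± 0.057 and -0.37 ± 0.057. Those of GPNMB were -0.80 and -0.62. What part the position has in this was not tested.

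For DCT both neighbours went the other way in both comparisons with SC01. GPC6, a glypican 29.4 kb away, changed by -1.09 ± 0.074 in SC10 and -0.69 ± 0.072 in SC07, and TGDS by -0.58 ± 0.053 and -0.14 ± 0.052. For SC10 against SC07 both moved with DCT (-0.87), GPC6 by -0.40 ± 0.077 and TGDS by -0.43 ± 0.053. DGKA, a diacylglycerol kinase that ends 78 bases from PMEL, changed by -1.46 ± 0.089 in SC10 and -1.82 ± 0.091 in SC07, while PMEL was higher in both. LURAP1L, 64.7 kb from TYRP1, changed by 0.41 ± 0.082 in SC10 and -0.27 ± 0.086 in SC07, and PTPRD, on the far side of a gap of 2073 kb, by -1.56 ± 0.15 and -3.06 ± 0.17. CTSC, a protease 840 kb from TYR, changed by 0.69 ± 0.041 and -0.22 ± 0.042, and NAALAD2, a peptidase 836 kb away on the other side, by 1.74 ± 0.23 and 1.43 ± 0.23.

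Beside MLANA, RANBP6, a nuclear import factor, changed by 0.53 ± 0.063 in both SC10 and SC07 against SC01, while KIAA2026, whose span overlaps MLANA, changed by -0.17 ± 0.074 and -0.04 ± 0.074. Beside GPR143, SHROOM2, a regulator of cell shape, changed by 0.89 ± 0.096 and 1.03 ± 0.095. TBL1X changed by 0.28 ± 0.072 and -0.36 ± 0.074. SHROOM2 begins 159 bases beyond the outermost end of GPR143 in GENCODE (9786297). The RefSeq start of GPR143 used for the motifs lies inside that span, in the window 9765798 to 9766097. The 159 bases are therefore not counted from that start. LURAP1L-AS1, on the other strand, shares 102 exon bases (2.73%) with TYRP1, and its clone means were 2.54, 1.39 and 2.66 CPM in SC10, SC07 and SC01, far under TYRP1.

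**Figure D5:**
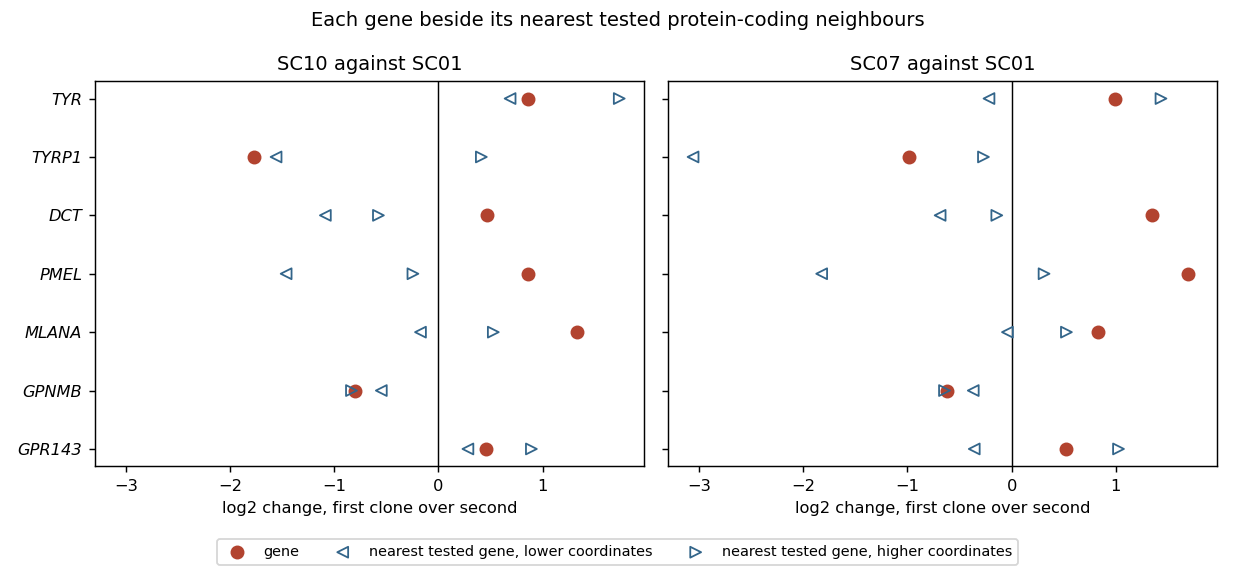
Log2 change of each of the 7 genes (filled points) beside the nearest tested protein-coding gene on either side (open triangles), for SC10 against SC01 and SC07 against SC01. The neighbours of GPNMB lie close to it in both panels, and those of DCT lie on the other side of 0 from DCT.

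Markers of other cell types also differed between clones. As background, 33.5% of all genes tested were higher and 32.4% lower in SC10 than in SC01. Those shares were 31.5% and 30.5% for SC07 against SC01, and 24.8% and 23.0% for SC10 against SC07. A list of 7 fibroblast markers had 5 tested, with 2 higher and 1 lower in SC10 than in SC01, 2 higher and 2 lower in SC07 than in SC01, and 1 higher and 3 lower in SC10 than in SC07. With library totals alone, 2 were higher and 3 lower in SC10 than in SC01, where 5044 and 7094 of all genes were. Their summed level ran from 363 to 401 CPM in SC10, 437 to 499 CPM in SC07 and 161 to 168 CPM in SC01, most of it from LUM (350 ± 18, 462 ± 34 and 131 ± 2.2 CPM). LUM and DCN were higher and COL1A1 lower in both clones than in SC01. FBLN1 (28.9 ± 1.1, 9.59 ± 0.21 and 30.5 ± 0.89 CPM) was lower in SC07 and not called in SC10 against SC01. None of the 7 was at 0 in all libraries. Of 5 Schwann cell markers, all tested, 3 were higher and 2 lower in SC10 than in SC01, 2 higher and 2 lower in SC07 than in SC01, and 4 higher and 0 lower in SC10 than in SC07. They summed to between 819 and 839 CPM in SC10, 796 and 806 in SC07 and 982 and 1011 in SC01. Of 7 keratinocyte markers, 2 were tested with 0 higher and 1 lower in SC10 than in SC01, 1 higher and 0 lower in SC07 than in SC01, and 1 higher and 1 lower in SC10 than in SC07. KRT1 was at 0 in every library, and the sums of all 7 lay between 23.3 and 27.2 CPM in SC10, 22.2 and 22.4 in SC07 and 21.8 and 24.3 in SC01. Of the 8 leukocyte markers 2 were tested, with 1 higher and 0 lower in each clone against SC01 and 0 higher and 1 lower in SC10 than in SC07. The part of these markers in the results above was not tested.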

How the data were processed

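RNA-seq was measured in 9 libraries of untreated SK-MEL-5 subclones, 3 each of SC10, SC07 and SC01, grouped by the labels. The authors deposited raw read counts per Ensembl gene. The submitters' processing notes name HISAT2, featureCounts and the build GRCh38. The sources used here do not give versions, annotation release, strand setting or the handling of multiply mapped reads. Names, positions and exon lengths came from GENCODE 29 on GRCh38, which held 57055 of 60675 IDs.

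Genes were kept with filterByExpr (18009) and entered into 1 robust quasi-likelihood fit of the 9 libraries (edgeR 4.0.16, R 4.3.3, TMM scaling), adjusting by Benjamini-Hochberg over all genes tested with a threshold of 0.05. Standard errors came from the log2 change and its F statistic. The code was tested on simulated data. Within-library ratios used counts per kb and exact permutation tests in SciPy 1.17.1. At these depths 3 counts correspond to between 0.0773 and 0.0948 CPM.

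The 7 genes and all gene lists were chosen with earlier results of these data known. Named genes were the 7, their 3 most similar genes (mean of at least 5 CPM, log2 with a prior count of 2), their nearest tested neighbours, genes overlapping them, and up to 4 called genes of each list with the largest changes. Alternatives were other scalings, filters and tools (DESeq2 1.42.0, limma 3.58.1), a 1.5-fold minimum change, pairs fitted alone, a non-robust fit, a replicate block, and leaving out each library.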

Additional observations from a re-analysis of the deposited data

How the results depend on the processing

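Over 20 alternative settings, 413 of 420 recomputed log2 changes of the 7 genes kept their call and direction, 7 lost the call and 0 reversed. All 7 losses came from testing against a 1.5-fold change, which asks for a larger difference by its construction. Under it 4192 genes were called for SC10 against SC01, 3703 for SC07 against SC01 and 1444 for SC10 against SC07, the last with 3 of the 7 genes. The values without a call there were DCT (0.47) and GPR143 (0.45) for SC10 against SC01, GPNMB (-0.62) and GPR143 (0.52) for SC07 against SC01, and TYR (-0.13), MLANA (0.50) and GPNMB (-0.18) for SC10 against SC07. Differences between clones in the within-library ratios moved by less than 1 SD in all 120 alternatives. Exon length is fixed for each gene, so it cancels in such a difference and could not move it. Leaving out 1 of 3 libraries cannot move a clone mean by as much as 1 SD of that clone. The limit of 1 SD therefore tests little. The ratios themselves depend on exon length. With the basic exon set TYRP1 to TYR in SC10 was 0.743, against 0.688 ± 0.023 with merged exons. PMEL to MLANA in SC07 was 11.1, against 8.95 ± 0.30.

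The labels give the clones the same replicate numbers, but deviations of same-numbered libraries correlated only between -0.0195 and 0.0429. No pairing by number was therefore seen, though a correlation over all genes could miss a small shared effect. With a replicate block 11926 genes were called for SC10 against SC01, 11249 for SC07 against SC01 and 8754 for SC10 against SC07, and 13809 among the 3 clones. No call of the 7 genes changed.

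Scaling by library totals moved the median log2 change of all genes to -0.12 against SC01 in SC10 and in SC07. For SC07 against SC01, 4666 genes were then higher and 6841 lower, against 5675 and 5487 under TMM, and for SC10 against SC01 5044 and 7094, against 6028 and 5836. All 7 genes kept their calls, with TYR for SC10 against SC01 at 0.75 and TYRP1 at -1.88. The number called on a list was within 1.5 times in 631 of 660 alternatives, but this counts both directions together. By direction, the lists of lineage regulators, transporters and cargo sorting lost higher calls against SC01 under library totals. PMEL processing went from 2 to 1 higher in SC10 against SC01, and the melanocyte markers from 4 to 3 in SC07 against SC01. Depth did not limit the 7 genes, whose lowest count was 1653, while the number of libraries limits the ratio tests.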
